A study of Mus musculus with 67 samples.

Results

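T cells from animals with experimental autoimmune encephalomyelitis (EAE), an autoimmune inflammation of the central nervous system, were compared with those of naive animals after both had been activated through the antigen receptor. The comparison took the libraries labelled as T cells with anti-CD3 and control Ig and no interferon beta (IFNb), 3 from EAE and 3 from naive animals, which is 6 of the 60 libraries of the series. Both groups came from C57BL/6 mice, described in the study's general methods as young adults of both sexes, and carried no genetic alteration. EAE animals had been immunized with a MOG peptide, a piece of a myelin protein, and naive animals had not been immunized. The labels call the cells T cells, and the study's methods describe a negative selection for CD4+ T cells from spleen and inguinal and brachial lymph nodes. Transcripts of CD8 T cells in the naive libraries go against a pure CD4+ preparation there. Cells of both groups were cultured for 18 h with latex beads that carried anti-CD3 (clone 2C11) and control Ig. The sources used here do not give the day after immunization, the disease score or the number of animals behind a library. Cells were taken from lymphoid organs and not from the nervous system, and most of them need not be specific for the myelin peptide.

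When anti-CD3 engages the T cell receptor, a resting CD4+ T cell leaves quiescence within hours. It induces early response genes such as the Nr4a and Egr families, then increases glucose uptake, glycolysis, lipid and ribosome synthesis, and later enters the cell cycle. A naive cell has to build this program from rest, whereas an effector or memory cell already carries lineage factors and can release the cytokines of its lineage soon after contact: interferon gamma for Th1, interleukins 4, 5 and 13 for Th2, interleukins 17 and 22 for Th17 cells. EAE is known as a disease driven by Th1 and Th17 cells.

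The EAE libraries held 9.3 to 10.1 M counts assigned to genes and the naive ones 7.3 to 32.3 M. A level is given as CPM, the count of a gene relative to the library's TMM-scaled total in M, and a change as the log2 ratio of EAE to naive ± its standard error. A gene was called changed at a Benjamini-Hochberg adjusted p below 0.05 in the quasi-likelihood test of edgeR. Of the CD4 T cell markers, Cd3e was at 589, 650.5 and 656 CPM in the EAE libraries and 420.5, 437 and 428 CPM in the naive ones, and Cd4 (chr6:124864692-124888221) was at 539, 639.6 and 635 CPM in the EAE libraries and 321, 357 and 307 CPM in the naive ones (log2 change 0.88 ± 0.09, adjusted p = 2.92e-05). The other markers of this set did not share the rise. Scaled over all 30 T cell libraries, Cd3d was lower in every EAE library than in any naive one. Trac and Lck overlapped between the groups. The naive libraries also held transcripts of CD8 T cells, which the EAE libraries nearly lacked. Cd8a (chr6:71373427-71379173) was at 2.93, 0.936 and 1.36 CPM in the EAE libraries and 238, 222 and 297 CPM in the naive ones, and Cd8b1 at 11.7, 14.98 and 13.9 CPM in the EAE libraries and 360.5, 359 and 451 CPM in the naive ones. In RNA from a cell mixture, fewer cells of a type and less RNA per cell cannot be told apart. Sums of marker levels, scaled over all 30 T cell libraries, showed what else the preparations held. The sum of the 17 B cell markers was lower in EAE libraries, at 244 to 369 against 490 to 637 CPM, with 6 of 15 tested members lower and 0 higher, and 10 lower without EAE library 1. The B cell factor Pax5 was highest in EAE library 1, at 19.3, 4.58 and 1.78 CPM in the EAE libraries and 9.28, 5.24 and 2.55 CPM in the naive ones. The 29 myeloid and dendritic cell markers summed to 135, 292 and 194 CPM in EAE and 184, 137 and 185 CPM in naive libraries, which overlap. Erythroid and platelet markers summed to 13.3 to 27.4 CPM in EAE and 7.52 to 9.31 CPM in naive libraries, with 1 of 3 tested members higher. The hemoglobin genes went the other way, with 0 counts in EAE and 42 in naive libraries for Hbb-bs and 1 and 16 for Hba-a1. The platelet gene Pf4 had 27 and 3. The NK cell markers Ncr1, Klrb1c and Klre1 lay between 0.659 and 5.43 CPM in all 6 libraries on the same scale. Run names place all 3 EAE libraries in lane 1 and the naive ones in lanes 2 to 5, so for these 6 libraries lane and group cannot be told apart. The strand setting of the counting is not known, so counts are less certain where exons of a named gene overlap those of an antisense gene, as for Il21, Tpi1, Bnip3, Tgm2, Xcl1, Syt6, Ms4a4c, Cd160, Bcl6, Aldoa, Foxp3 and Hif1a.

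**Figure D1:**
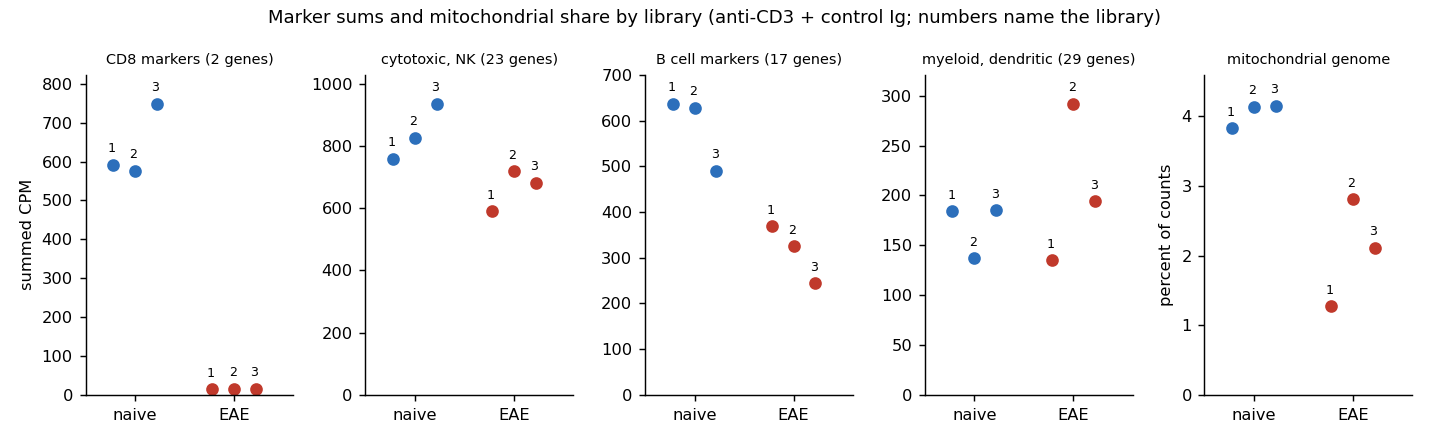
Summed levels of marker genes (CPM, first 4 panels) and the percent of counts from the mitochondrial genome (right) in the 3 naive (blue) and 3 EAE (red) activated libraries, each point a library with its number. CD8 markers summed to 577 to 749 CPM in naive and 14.5 to 15.9 CPM in EAE libraries, whereas the myeloid sums overlap.

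The first question was how far activated T cells differ between the disease and the resting state. Of 13487 genes tested, 6957 were called (51.6%), of which 3740 were higher in EAE (27.7%) and 3217 lower (23.9%). The median log2 change over all tested genes was -0.01. Counts of gene list members given below are to be read against these shares of 27.7% and 23.9%. Most called genes changed by less than 2-fold. Of them, 2179 passed a 2-fold change (1215 higher and 964 lower), 608 a 4-fold change (395 and 213) and 199 an 8-fold change (134 and 65). The groups of 3 did not overlap in 8202 genes (60.8%). The same difference was read in the other 3 anti-CD3 arms (control Ig with IFNb, anti-Btla, and anti-Btla with IFNb), 9 EAE and 9 naive libraries that did not enter the fit but carry the same replicate numbers. There all 9 EAE libraries lay above all 9 naive ones in 2515 of the 3740 genes called higher (67.2%) and in 20.2% of all tested genes. They lay below in 1907 of the 3217 called lower (59.3%), against 16.7% of all tested genes, and 0 called genes separated in the opposite direction. Lane 2 held 4 activated EAE libraries, all with IFNb, and naive library 1. Within that lane, all 4 EAE libraries were on the called side of the naive one for 88.8% of the genes called higher and 86.1% of those called lower, against 36.8% and 34.6% of all tested genes. This naive library is also one of the 6 in the fit.

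Among called genes averaging at least 10 CPM without overlap of the groups, the 12 largest increases were Il13, Il21, Tgm2, Ak4, Gm10800, Egln3, Nos2, Il17a, Tpi1, Il1rn, Bnip3 and Mcm10. They include cytokines (Il13, Il21, Il17a), the interleukin 1 receptor antagonist Il1rn, and genes known to respond to low oxygen (Ak4, Egln3, Bnip3). The 12 largest decreases were Slc6a19, Cd8a, Syt6, Kcna2, Xcl1, Crtam, Cd8b1, Kcnc1, Ms4a4c, Klrd1, Trib3 and Cd160, of which Cd8a, Cd8b1, Xcl1, Crtam, Klrd1 and Cd160 are genes of CD8 or cytotoxic cells. All 24 also separated the 9 EAE from the 9 naive libraries of the other anti-CD3 arms, and all 24 kept their side within lane 2. The activated naive library of that lane had itself entered the choice of these genes, and the activated EAE libraries there had received IFNb. The lane check is therefore not independent of that choice and does not separate lane from group.

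**Figure D2:**
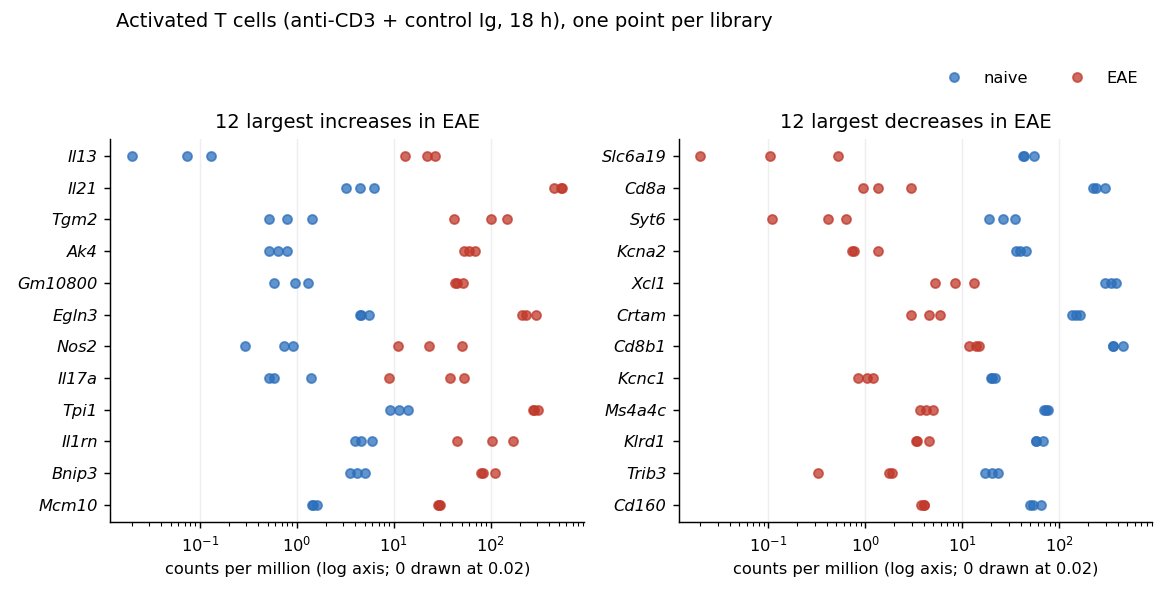
Levels (CPM, log axis) of the 12 largest increases (left) and 12 largest decreases (right) in the 3 EAE (red) and 3 naive (blue) activated libraries, one point per library, with a level of 0 drawn at 0.02. No EAE point overlaps the naive points of its gene. Il17a, Nos2, Tgm2 and Il1rn spread widely among the EAE libraries, whereas Tpi1 and Mcm10 do not.

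Cytokines were the first group of increases. Il21 (chr3:37222759-37232636), which drives germinal center B cells and supports Th17 and follicular helper cells, was at 453, 535 and 548 CPM in the EAE libraries and 4.45, 6.195 and 3.2 CPM in the naive ones. It rose 118-fold (log2 change 6.88 ± 0.19, adjusted p = 3.03e-08), and its EAE libraries lay close together. Il17a (chr1:20730905-20734496), the defining cytokine of Th17 cells, was at 9.01, 52.6 and 38.4 CPM in the EAE libraries and 0.523, 1.401 and 0.585 CPM in the naive ones (log2 change 5.36 ± 0.68, adjusted p = 0.000147). EAE library 1 was the lowest of the 3 in Il17a and still above every naive library. The related Il17f was at 7.92, 29.1 and 26.3 CPM in the EAE libraries and 0.915, 1.18 and 1.57 CPM in the naive ones (log2 change 3.99 ± 0.48, adjusted p = 0.000103), and Il22, a Th17 cytokine that acts on epithelia, at 6.08, 29.97 and 20.1 CPM in the EAE libraries and 0.262, 0.0737 and 0.0308 CPM in the naive ones (log2 change 7.78 ± 0.82, adjusted p = 4.62e-05). Both repeated the order of the EAE libraries seen for Il17a. Of the 23 tested Th17 and encephalitogenic genes, 16 were higher (69.6%) and 2 lower (8.7%, median log2 change 1.22). Among them were Ahr, a ligand-activated factor that promotes Il22 (59.04 ± 1.71 against 8.88 ± 0.761 CPM, log2 change 2.72 ± 0.10, adjusted p = 7.11e-08), the leucine zipper factor Batf (64.2 ± 8.13 against 21.4 ± 2.27 CPM, 1.58 ± 0.12), its partner Irf4 (2484 ± 69.4 against 774 ± 58.7 CPM, 1.68 ± 0.08) and Tgfb3 (18.9 ± 7.51 against 1.24 ± 0.297 CPM, 4.02 ± 0.36). Csf2 (chr11:54247271-54249667), which encodes the growth factor GM-CSF, was at 4.23, 8.22 and 6.82 CPM in the EAE libraries and 3.27, 3.91 and 4.06 CPM in the naive ones and passed narrowly (log2 change 0.76 ± 0.27, adjusted p = 0.0415). It lost its call without EAE library 2 or 3, or without any one of the naive libraries (log2 change 0.54 to 0.82).

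Th2 genes, which EAE is less known for, were mostly higher too. Of 14 tested, 12 were higher and 1 lower, with a median log2 change of 2.48, against -0.01 for all tested genes. Il13 (chr11:53631324-53634702) was at 12.9, 21.9 and 26.4 CPM in the EAE libraries and 0.131, 0.0737 and 0 CPM in the naive ones. Pooled over the groups it had 581 counts in EAE and 2 in naive cells, a ratio of 524 per total count (95% counting interval 145 to 4340). The fitted log2 change of Il13 was 8.76 ± 0.56, and 9.39 without naive library 1 or 7.57 without naive library 3. Il9 was at 4.99, 25.3 and 14.4 CPM in the EAE libraries and at 0 in all 3 naive ones, at least 256-fold higher against a floor of 3 counts over the naive group. Il5 was at 1.19, 2.19 and 2.62 CPM in EAE and at 0 in naive libraries, at least 34.3-fold higher. Il4 was at 3.15, 6.14 and 5.66 CPM in the EAE libraries and 0.262, 0.516 and 0.739 CPM in the naive ones (log2 change 3.11 ± 0.42, adjusted p = 0.000218). The absolute levels of these cytokines were low, and Il9, Il5 and Il4 were named after their values were seen. Further members were the Th2 factor Gata3 (59.4 ± 8.21 against 19.5 ± 3.74 CPM, log2 change 1.59 ± 0.15, adjusted p = 1.93e-05) and the chemokine receptor Ccr4 (chr9:114490316-114504916), which guides Th2 and regulatory cells and was at 447, 442 and 591 CPM in the EAE libraries and 31.2, 26.7 and 26.5 CPM in the naive ones (17.7-fold, log2 change 4.15 ± 0.13, adjusted p = 5.86e-08). The receptor Ccr8 was at 29.2 ± 6.83 against 6.18 ± 0.46 CPM (2.25 ± 0.18) and the transcription factor Nfil3 at 47.5 ± 10.9 against 7.77 ± 1.08 CPM (2.58 ± 0.18).

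Th1 genes did not move as a block. Of 16 tested, 5 were higher and 9 lower (median log2 change -0.59). Ifng (chr10:118441046-118445892) was at 146, 383 and 210.4 CPM in the EAE libraries and 26.8, 26.1 and 53.95 CPM in the naive ones, 6.67-fold higher (log2 change 2.74 ± 0.37, adjusted p = 0.000233). Its factor Tbx21 was at 43.95, 45.6 and 45.4 CPM in the EAE libraries and 22.5, 19.8 and 28.2 CPM in the naive ones (log2 change 0.92 ± 0.13, adjusted p = 0.000264), and Il12rb2, the inducible chain of the interleukin 12 receptor, at 605 ± 179 against 164 ± 53.4 CPM (log2 change 1.87 ± 0.24, adjusted p = 0.000171). On the other side were the chemokines Xcl1, 13.2, 5.202 and 8.39 CPM in the EAE libraries and 297, 388 and 339 CPM in the naive ones (log2 change -5.26 ± 0.23, adjusted p = 2.12e-07), and Ccl4, 27.4 ± 6.07 against 169 ± 33.5 CPM (log2 change -2.63 ± 0.18, adjusted p = 3.28e-06), and the interleukin 18 receptor chain Il18rap, 22.3 ± 1.43 against 47.4 ± 6.96 CPM (log2 change -1.10 ± 0.12, adjusted p = 5.83e-05), genes that CD8 and cytotoxic cells also express. The part of CD8 cells in these values was not tested. Over the helper cytokine list, 20 of 36 tested members were higher and 8 lower (median log2 change 0.99). Il2, the growth factor that activated naive cells make in quantity, was lower, at 19.8, 9.05 and 14.1 CPM in the EAE libraries and 23.3, 22.2 and 28.8 CPM in the naive ones (log2 change -0.81 ± 0.23, adjusted p = 0.0162), a call lost without EAE library 3 (log2 change -0.80) or naive library 3 (-0.68). Tnf was lower as well (38.4 ± 1.01 against 96.8 ± 6.42 CPM, log2 change -1.34 ± 0.08, adjusted p = 1.29e-06), whereas Lif (133 ± 17.4 against 18.9 ± 2.76 CPM, log2 change 2.79 ± 0.13, adjusted p = 2.76e-07) and Mif (157 ± 16.7 against 35.6 ± 0.217 CPM, log2 change 2.14 ± 0.09, adjusted p = 1.41e-07) were higher.

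**Figure D3:**
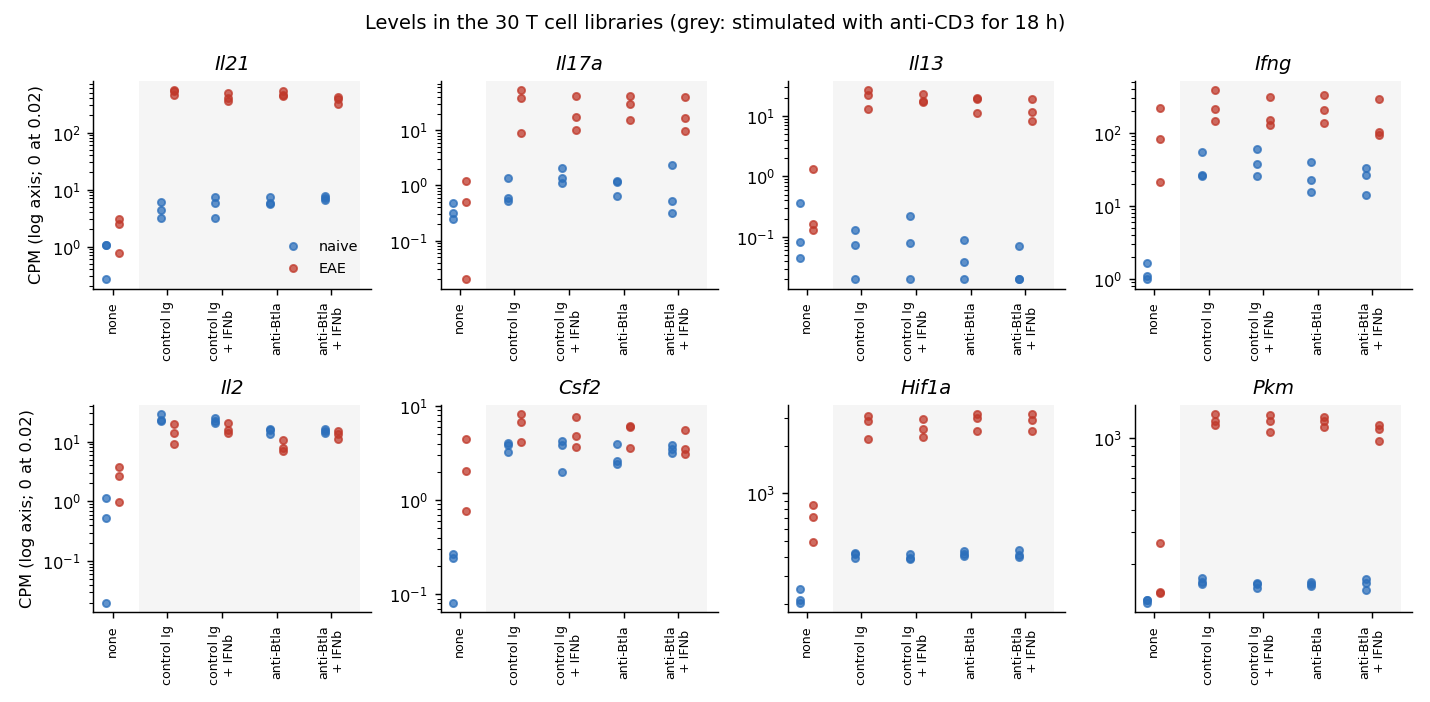
Levels (CPM, log axes, 0 drawn at 0.02) of 6 cytokines, Hif1a and Pkm in all 30 T cell libraries, EAE in red and naive in blue, by arm, scaled over the 30 libraries. Il21, Il17a and Il13 were far higher in EAE in all 4 anti-CD3 arms, Ifng was higher in EAE also without stimulation, and Il2 and Csf2 of activated EAE and naive cells lie close together.

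Follicular helper, regulatory and costimulatory genes followed separate courses. Of the Tfh list, 6 of 15 tested members were higher and 6 lower (40% each, median log2 change 0.03). Bcl6, the factor of follicular helper cells, was at 20.2, 21.6 and 19.8 CPM in the EAE libraries and 138, 129 and 129 CPM in the naive ones (log2 change -2.68 ± 0.08, adjusted p = 3.97e-08), while Il21, which these cells secrete, rose as given above. Cd200 was higher (138 ± 6.22 against 46.4 ± 5.86 CPM, log2 change 1.58 ± 0.10, adjusted p = 1.55e-06), and Cxcr5 did not pass (11.3 ± 3.13 against 10.2 ± 1.17 CPM, 0.14 ± 0.20). Of the regulatory T cell list, 17 of 25 tested members were higher (68%) and 3 lower (12%, median log2 change 1.17). Foxp3 (chrX:7573644-7595245), which shares exon sequence with Flicr, was at 107, 181 and 175 CPM in the EAE libraries and 64.5, 80.4 and 67.02 CPM in the naive ones (2.18-fold, log2 change 1.13 ± 0.18, adjusted p = 0.000561). Il2ra was at 2597 ± 327 against 679.9 ± 10.1 CPM (log2 change 1.93 ± 0.10, adjusted p = 3.74e-07), Ctla4 at 432 ± 87.03 against 118 ± 14.8 CPM (log2 change 1.87 ± 0.14, adjusted p = 6.89e-06) and Tnfrsf4 (Ox40) at 173 ± 28.8 against 38.6 ± 4.602 CPM (log2 change 2.16 ± 0.13, adjusted p = 1.56e-06), all of which conventional T cells also induce on activation. Of the activation markers, 12 of 22 tested members were higher and 7 lower (median log2 change 0.64), with the transferrin receptor Tfrc higher (459.6 ± 21.1 against 164 ± 10.2 CPM, 1.48 ± 0.07) and the early marker Cd69 lower (292 ± 8.66 against 724 ± 15.9 CPM, log2 change -1.31 ± 0.06, adjusted p = 2.37e-07). Over the list of antigen-experienced T cell genes, 14 of 30 tested members were higher and 10 lower (median log2 change -0.01). It joins Prdm1, the Blimp1 gene, at 90.96 ± 22.7 against 14.3 ± 0.969 CPM (log2 change 2.66 ± 0.18, adjusted p = 2.61e-06), with Nkg7, a cytotoxic granule gene, at 19.4 ± 0.182 against 95.6 ± 10.99 CPM (log2 change -2.30 ± 0.10, adjusted p = 2.18e-07).

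The series concerns the inhibitory receptor Btla. It (chr16:45224315-45257670) was at 295, 244 and 267 CPM in the EAE libraries and 114, 119.6 and 108 CPM in the naive ones, 2.36-fold higher in EAE (log2 change 1.24 ± 0.08, adjusted p = 2.23e-06). Its ligand gene Tnfrsf14, which encodes Hvem, was at 26.2, 23.4 and 28 CPM in the EAE libraries and 24.8, 24.3 and 22.03 CPM in the naive ones and did not pass (log2 change 0.13 ± 0.11, adjusted p = 0.325). Cd160, another receptor for Hvem, was at 4.02, 3.75 and 3.98 CPM in the EAE libraries and 49.4, 64.1 and 53.7 CPM in the naive ones (log2 change -3.83 ± 0.14, adjusted p = 7e-08). Of the list of coinhibitory receptors and ligands, 9 of 19 tested members were higher and 6 lower (median log2 change 0.42). Lag3 was higher (108 ± 13.3 against 22.4 ± 2.19 CPM, log2 change 2.26 ± 0.11, adjusted p = 4.29e-07), and Cd274, which encodes PD-L1, was lower (267 ± 32.9 against 378 ± 48.7 CPM, log2 change -0.51 ± 0.11, adjusted p = 0.00375). Pdcd1, the PD-1 gene, was lower too (9.41 ± 0.861 against 18.2 ± 4.08 CPM, log2 change -0.95 ± 0.18, adjusted p = 0.00166).

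Glycolysis was the list with the largest shift among the metabolic ones, with 22 of 23 tested members higher and 0 lower (95.7% against 27.7% of all tested genes) and a median log2 change of 2.04. Tpi1 (chr6:124810586-124814296), triose phosphate isomerase, was at 279.7, 309 and 273 CPM in the EAE libraries and 9.15, 13.9 and 11.2 CPM in the naive ones, and rose 24.8-fold (log2 change 4.63 ± 0.12, adjusted p = 2.93e-08). Pkm, pyruvate kinase, was at 1193, 1350 and 1235 CPM in the EAE libraries and 156, 159.7 and 168 CPM in the naive ones (log2 change 2.96 ± 0.07, adjusted p = 2.93e-08). Eno1, enolase, was at 726, 801 and 706 CPM in the EAE libraries and 86.9, 98.1 and 97.4 CPM in the naive ones (log2 change 2.98 ± 0.08, adjusted p = 2.93e-08), and Aldoa, aldolase, at 864, 968 and 913 CPM in the EAE libraries and 208, 214 and 198 CPM in the naive ones (log2 change 2.15 ± 0.07, adjusted p = 5.86e-08). The groups were separated by a wide margin in each of these enzymes, and replicates differed little. Slc16a3, which exports lactate, was at 52.6 ± 5.07 against 3.94 ± 0.294 CPM (3.71 ± 0.12), Ldha, lactate dehydrogenase, at 1650 ± 57.6 against 439.5 ± 12.4 CPM (1.91 ± 0.06), and the glucose transporter Slc2a1 at 228 ± 22.7 against 55.2 ± 1.99 CPM (log2 change 2.04 ± 0.09, adjusted p = 1.4e-07). Several of these enzymes have near-identical copies in the genome that share reads with them, so their levels are uncertain to that extent. Hif1a (chr12:73901375-73947530), the oxygen-regulated factor that induces glycolysis, was at 2226, 3087 and 2877 CPM in the EAE libraries and 393, 419.6 and 418 CPM in the naive ones (6.66-fold, log2 change 2.73 ± 0.12, adjusted p = 1.78e-07), with EAE library 1 the lowest of the 3.

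The genes with the largest increases outside the cytokines included some known as targets of that factor. Ak4 (chr4:101419277-101466995), a mitochondrial adenylate kinase, was at 59.5, 68.5 and 52.8 CPM in the EAE libraries and 0.784, 0.516 and 0.646 CPM in the naive ones (93.8-fold, log2 change 6.55 ± 0.18, adjusted p = 2.93e-08). Egln3 (chr12:54178981-54203860), a prolyl hydroxylase that marks Hif proteins for degradation, was at 209, 291 and 233 CPM in the EAE libraries and 4.45, 4.65 and 5.57 CPM in the naive ones (48.1-fold, log2 change 5.59 ± 0.16, adjusted p = 3.03e-08). Bnip3 (chr7:138890836-138909519), which removes mitochondria by mitophagy, was at 78.6, 112 and 84.01 CPM in the EAE libraries and 5.098, 3.54 and 4.15 CPM in the naive ones (21.9-fold, log2 change 4.46 ± 0.17, adjusted p = 1.05e-07). Hypoxia-inducible factors are known to bind the core ACGTG or GCGTG. Read on both strands, these letters occurred in RefSeq promoter windows (GRCm38.p6, 250 bases before to 50 after a start) of 20 of 22 glycolysis genes with a window (90.9%), against 6386 of 9831 tested genes (65%). A match of this short core is a description of the letters. The windows of Bnip3, Egln3 and Tpi1 are shown, since these genes are among the 12 largest increases, with the core in capitals where present.
Bnip3 (chr7:138909457-138909756, minus strand): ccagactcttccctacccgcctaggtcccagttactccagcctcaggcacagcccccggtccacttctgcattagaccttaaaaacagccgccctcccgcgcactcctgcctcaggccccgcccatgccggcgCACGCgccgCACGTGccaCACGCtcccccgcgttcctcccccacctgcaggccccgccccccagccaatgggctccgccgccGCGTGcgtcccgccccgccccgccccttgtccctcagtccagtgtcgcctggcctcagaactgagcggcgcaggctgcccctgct
Egln3 (chr12:54203825-54204124, minus strand): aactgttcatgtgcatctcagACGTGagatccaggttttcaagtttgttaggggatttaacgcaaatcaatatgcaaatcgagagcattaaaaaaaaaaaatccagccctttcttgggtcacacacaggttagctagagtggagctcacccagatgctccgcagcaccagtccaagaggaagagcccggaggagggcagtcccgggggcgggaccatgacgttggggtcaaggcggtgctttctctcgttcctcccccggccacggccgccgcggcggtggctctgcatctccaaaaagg
Tpi1 (chr6:124814109-124814408, minus strand): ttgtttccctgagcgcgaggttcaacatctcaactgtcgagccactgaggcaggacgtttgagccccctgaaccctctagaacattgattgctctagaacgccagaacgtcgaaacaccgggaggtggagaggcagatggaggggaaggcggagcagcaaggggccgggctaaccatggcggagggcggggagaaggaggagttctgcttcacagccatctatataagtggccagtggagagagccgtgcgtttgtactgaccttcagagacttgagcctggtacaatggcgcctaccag
Bnip3 has 5 matches, some of them the same letters read on both strands, Egln3 has 1, and the Tpi1 window has 0 although Tpi1 had the largest change of the list.

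Cell cycle genes rose nearly as a block. Of 45 tested G1/S and DNA replication genes, 43 were higher (95.6%) and 1 lower (2.22%, median log2 change 1.39). Of 40 tested mitosis genes 33 were higher (82.5%) and 2 lower (5%, median 1.63). Mcm10 (chr2:4989714-5012791), which starts replication forks, was at 29.9, 29.2 and 28.3 CPM in the EAE libraries and 1.44, 1.48 and 1.63 CPM in the naive ones (18.7-fold, log2 change 4.23 ± 0.14, adjusted p = 5.96e-08). The helicase subunits Mcm3 (232, 208 and 198 CPM in the EAE libraries and 33.6, 34.3 and 37.6 CPM in the naive ones), Mcm4 (383 ± 20.8 against 91.95 ± 3.003 CPM) and Mcm6 (325, 321 and 328 CPM in the EAE libraries and 98.6, 100 and 96.2 CPM in the naive ones) changed by 2.59 ± 0.09, 2.06 ± 0.07 and 1.73 ± 0.06. Uhrf1, which carries DNA methylation through replication, was at 137, 128 and 119 CPM in the EAE libraries and 12.03, 11.6 and 11.02 CPM in the naive ones (11.2-fold, log2 change 3.48 ± 0.09, adjusted p = 2.93e-08). Top2a (300.1 ± 29.1 against 47.6 ± 3.402 CPM, log2 change 2.65 ± 0.09, adjusted p = 5.98e-08), the cyclin Ccna2 (48.8 ± 5.99 against 8.74 ± 0.392 CPM, 2.49 ± 0.12), the condensin subunit Smc2 (135 ± 6.18 against 50.9 ± 4.32 CPM, 1.40 ± 0.08) and the proliferation marker Mki67 (181 ± 25.1 against 38.2 ± 8.49 CPM, log2 change 2.27 ± 0.15, adjusted p = 2.78e-06) stood for mitosis. All 3 EAE libraries exceeded all 3 naive ones in 42 of the 45 G1/S genes. The E2F factors are known to switch on G1/S genes through sites such as TTTCCCGC or TTTGGCGC. On either strand these letters occurred in the windows of 13 of 37 list genes with a window (35.1%), against 336 of 9831 tested genes (3.42%). The windows of the helicase subunits Mcm3 and Mcm6, which both hold sites, are shown, with the sites in capitals.
Mcm3 (chr1:20820263-20820562, minus strand): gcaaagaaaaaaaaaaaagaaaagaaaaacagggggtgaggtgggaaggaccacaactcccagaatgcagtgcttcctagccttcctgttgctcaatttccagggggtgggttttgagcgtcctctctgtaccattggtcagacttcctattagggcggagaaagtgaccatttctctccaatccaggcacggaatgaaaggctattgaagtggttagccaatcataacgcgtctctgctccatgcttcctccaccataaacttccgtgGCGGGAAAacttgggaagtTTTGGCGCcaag
Mcm6 (chr1:128359656-128359955, minus strand): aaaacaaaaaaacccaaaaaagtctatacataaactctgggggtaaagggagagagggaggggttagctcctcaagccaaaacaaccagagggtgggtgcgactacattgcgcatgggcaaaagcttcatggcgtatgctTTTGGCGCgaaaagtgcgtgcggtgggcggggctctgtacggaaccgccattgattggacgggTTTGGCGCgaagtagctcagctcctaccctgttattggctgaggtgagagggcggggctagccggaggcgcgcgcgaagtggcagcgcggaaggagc
Each of them holds 2 such sites, in Mcm3 1 on each strand. The window of Mcm10, which had the largest change of the list, holds 0.

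Genes of biosynthesis were mostly higher. Of 24 tested genes of the unfolded protein response and protein folding in the endoplasmic reticulum, 18 were higher and 5 lower (median log2 change 1.08). The chaperone Hsp90b1 was at 1339, 1471 and 1462 CPM in the EAE libraries and 473, 447 and 451 CPM in the naive ones (log2 change 1.64 ± 0.07, adjusted p = 1.34e-07), Canx, calnexin, at 643 ± 19.03 against 252 ± 2.92 CPM (log2 change 1.35 ± 0.06, adjusted p = 1.78e-07), the oxidase Ero1l at 280.2 ± 15.6 against 100.2 ± 5.01 CPM (1.49 ± 0.07) and Sdf2l1 at 47.2 ± 6.05 against 7.59 ± 0.693 CPM (2.66 ± 0.13). Xbp1, the factor that raises the folding capacity of secretory cells, was at 232, 436 and 411 CPM in the EAE libraries and 77.7, 66.6 and 69.2 CPM in the naive ones (5.07-fold, log2 change 2.34 ± 0.20, adjusted p = 1.4e-05). The 5 lower members were Ddit3, Ero1lb, Herpud1, Ppp1r15a and Dnajb9, where Ddit3, the CHOP gene of prolonged stress, was at 14.5 ± 1.91 against 35.7 ± 5.19 CPM (-1.29 ± 0.14). With counts rescaled for transcript length the change of Ero1l was 0.58. The endoplasmic reticulum stress element, CCAAT followed after any 9 bases by CCACG on either strand, occurred in windows of 7 of 19 list genes with a window (36.8%), against 13 of 9831 tested genes (0.132%), and the windows of Hsp90b1 and Canx, the members with the smallest p, are shown, the element in capitals.
Hsp90b1 (chr10:86705395-86705694, minus strand): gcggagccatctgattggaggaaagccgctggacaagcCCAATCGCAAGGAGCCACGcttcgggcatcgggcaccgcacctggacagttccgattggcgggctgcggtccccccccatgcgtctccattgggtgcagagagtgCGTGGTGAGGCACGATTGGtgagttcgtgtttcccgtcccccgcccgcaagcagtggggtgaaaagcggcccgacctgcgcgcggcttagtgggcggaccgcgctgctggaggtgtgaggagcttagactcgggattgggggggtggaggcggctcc
Canx (chr11:50325624-50325923, minus strand): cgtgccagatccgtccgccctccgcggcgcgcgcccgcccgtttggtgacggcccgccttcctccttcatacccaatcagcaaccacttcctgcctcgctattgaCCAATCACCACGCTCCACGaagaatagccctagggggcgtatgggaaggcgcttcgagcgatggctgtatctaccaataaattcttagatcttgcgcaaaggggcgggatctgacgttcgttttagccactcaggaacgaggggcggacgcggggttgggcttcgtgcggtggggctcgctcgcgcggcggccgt
Hsp90b1 holds the element on both strands and Canx holds it once. Of 8 plasma cell markers only Irf4, Xbp1, Prdm1 and Jchain were tested, and the first 3, which activated T cells also express, were higher while Jchain was at 1.74, 8.95 and 5.45 CPM in the EAE libraries and 2.09, 2.58 and 0.431 CPM in the naive ones (adjusted p = 0.0532).

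Genes of lipid synthesis were mostly higher. Of 32 tested sterol and fatty acid genes, 28 were higher and 0 lower (87.5% against 27.7% of all tested genes, median log2 change 1.19). Scd2, a desaturase that makes monounsaturated fatty acids, was at 165, 175 and 125 CPM in the EAE libraries and 8.63, 10.2 and 10.8 CPM in the naive ones (15.4-fold, log2 change 3.94 ± 0.15, adjusted p = 7.39e-08). The sterol gene Idi1, an isomerase of isoprenoid synthesis, was higher as well (249 ± 17.7 against 60.5 ± 5.95 CPM, log2 change 2.05 ± 0.09, adjusted p = 1.78e-07). The core of the sterol response element, TCACNCCAC, occurred in windows of 1 of 21 list genes with a window, which was Hmgcs1, and in 1.35% of tested genes. Of 47 tested genes of ribosome biogenesis and Myc targets, 36 were higher and 1 lower (median 0.60), led by the mitochondrial chaperone Hspd1 (1364 ± 175 against 399.5 ± 26.5 CPM, log2 change 1.77 ± 0.10, adjusted p = 8.53e-07), while Myc itself did not pass (501 ± 7.61 against 442 ± 38.1 CPM, 0.18 ± 0.07). Genes of the 50 cytosolic ribosomal proteins were split, with 9 higher and 18 lower (median -0.09), such as Rpl3 (0.70 ± 0.08) and Rps27 (-1.13 ± 0.11).

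Nuclear and mitochondrial genes of respiration moved in opposite directions. Of 45 tested nuclear genes of oxidative phosphorylation, 34 were higher and 0 lower (median log2 change 0.43), for example Atp5a1, a subunit of ATP synthase, at 649, 628 and 663 CPM in the EAE libraries and 366, 359 and 349 CPM in the naive ones (log2 change 0.85 ± 0.06, adjusted p = 3.01e-06), and Ndufc2 of complex I (58.2 ± 1.52 against 24.9 ± 2.33 CPM, 1.24 ± 0.10). Of 13 tested genes of the mitochondrial genome, 0 were higher and 11 lower (median -0.91), 7 without naive library 2 or naive library 3. mt-Cytb, a subunit of complex III, was at 772, 1762 and 1269 CPM in the EAE libraries and 2863, 2964 and 2966 CPM in the naive ones (log2 change -1.21 ± 0.23, adjusted p = 0.00177). Mitochondrial counts made up 1.27, 2.81 and 2.11% of the EAE libraries and 3.83, 4.14 and 4.15% of the naive ones. In the other anti-CD3 arms the naive libraries had 3.70 to 4.29%. The EAE libraries with anti-Btla and no IFNb, at 2.96 to 3.89%, overlapped with them. All EAE libraries with IFNb, at 5.71 to 10.2%, lay above them, the reverse of the order given here. Of the 13 genes, 0 lay below all naive libraries in those arms and 1 lay above.

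**Figure D4:**
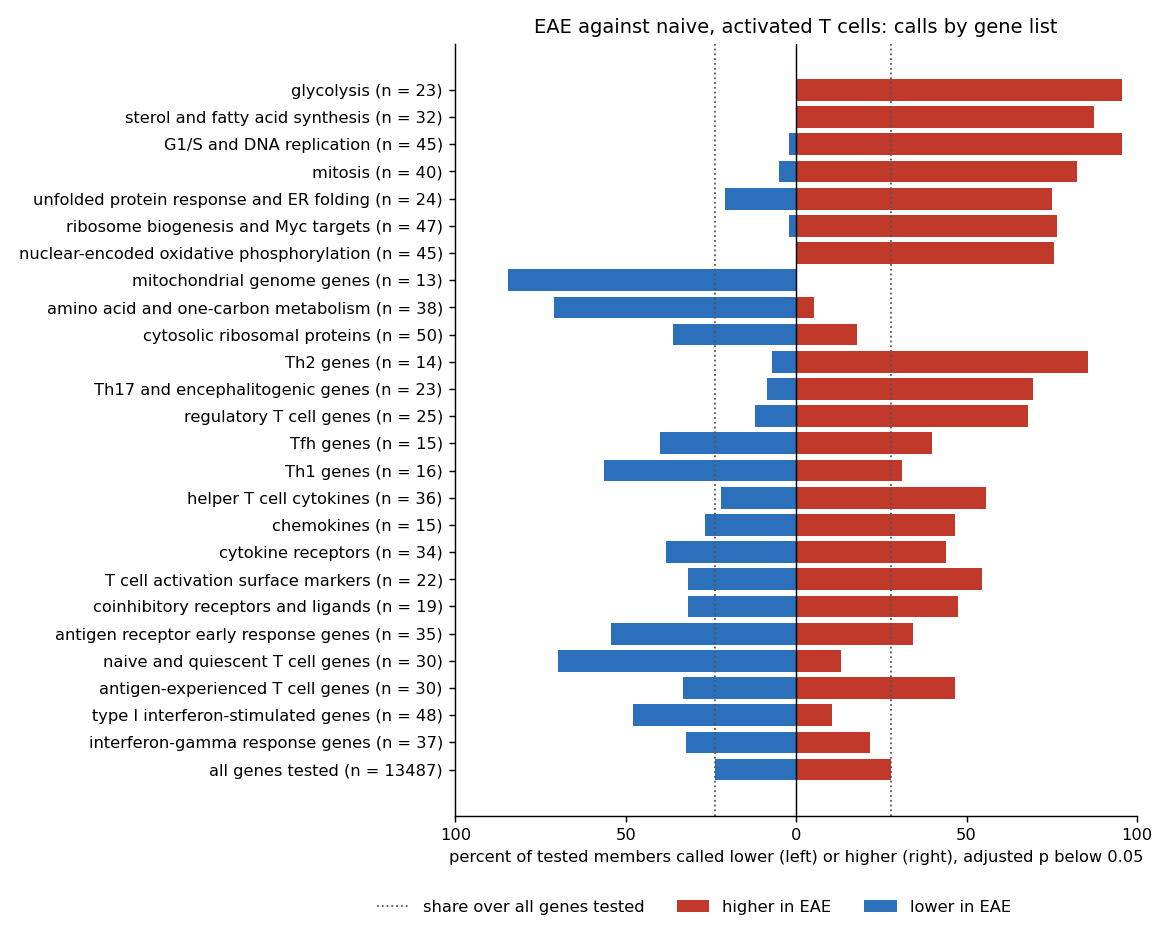
Percent of the tested members of 25 gene lists, and of all 13487 tested genes (bottom row), that were called higher (red, to the right) or lower (blue, to the left) in activated EAE cells, with dotted lines at the shares over all tested genes. Glycolysis, sterol and fatty acid synthesis, G1/S and Th2 genes lie far to the right, and mitochondrial genome, amino acid and naive or quiescent T cell genes to the left.

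Amino acid genes ran against the other metabolic lists. Of 38 tested genes of amino acid and one-carbon metabolism, 2 were higher and 27 lower (median log2 change -0.58), against 23.9% of all tested genes. Trib3 (chr2:152337422-152344032), a pseudokinase induced by the stress factor Atf4, was at 0.326, 1.77 and 1.89 CPM in the EAE libraries and 20.1, 23.2 and 17.1 CPM in the naive ones (14.9-fold lower, log2 change -3.90 ± 0.36, adjusted p = 1.77e-05). Chac1, another Atf4 target, was at 1.52, 1.77 and 0.734 CPM in the EAE libraries and 13.7, 20.2 and 15.6 CPM in the naive ones (log2 change -3.62 ± 0.29, adjusted p = 7.68e-06). Lower to a smaller extent were the transporters Slc7a1 for cationic amino acids (254 ± 22.1 against 647 ± 26.1 CPM, log2 change -1.35 ± 0.08, adjusted p = 9.28e-07) and Slc3a2, a chain of the large neutral amino acid transporter (122 ± 5.99 against 237 ± 16.7 CPM, log2 change -0.95 ± 0.07, adjusted p = 6.25e-06), and the asparagine synthetase Asns (11.98 ± 1.53 against 29.2 ± 4.49 CPM, -1.27 ± 0.15). Mthfd1, a cytosolic folate enzyme that supplies nucleotide synthesis, went the other way (107 ± 16.3 against 35.8 ± 1.22 CPM, log2 change 1.58 ± 0.11, adjusted p = 3.22e-06).

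Genes of resting T cells were lower in EAE. Of 30 tested naive and quiescent T cell genes, 4 were higher and 21 lower (median log2 change -0.70). Il7r (chr15:9505788-9530176), the interleukin 7 receptor chain that keeps resting cells alive, was at 81.5, 114 and 91.7 CPM in the EAE libraries and 945, 985 and 1102 CPM in the naive ones (log2 change -3.40 ± 0.12, adjusted p = 7e-08). Klf3 was at 54.6, 61.2 and 57.6 CPM in the EAE libraries and 284, 302 and 300 CPM in the naive ones (log2 change -2.35 ± 0.07, adjusted p = 3.97e-08) and Rapgef4 at 5.43, 4.99 and 3.98 CPM in the EAE libraries and 44.05, 44.4 and 46.4 CPM in the naive ones (log2 change -3.23 ± 0.12, adjusted p = 9.97e-08). Pik3ip1, an inhibitor of PI3 kinase, was at 24.5 ± 1.17 against 97.6 ± 13 CPM (-1.997 ± 0.11). The factor Tcf7 differed less (949 ± 155 against 1382 ± 43.3 CPM, -0.54 ± 0.11), and Ccr7 did not pass (-0.06 ± 0.12). Satb1, Sesn3, Ets1 and Igfbp4 were the 4 higher members, and the count of higher members was 2 without EAE library 3 or naive library 2.

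Early response genes of the antigen receptor were split, with 12 of 35 tested higher and 19 lower (median log2 change -0.64). The nuclear receptors Nr4a1, at 50.1, 56.5 and 52.8 CPM in the EAE libraries and 328, 395 and 326 CPM in the naive ones (log2 change -2.72 ± 0.10, adjusted p = 6.05e-08), and Nr4a2, at 29.4, 22.4 and 26.7 CPM in the EAE libraries and 303, 402 and 338 CPM in the naive ones (log2 change -3.73 ± 0.13, adjusted p = 6.4e-08), report recent receptor signaling and were far higher in naive cells. Egr1 was at 210.4 ± 20.6 against 716 ± 58.6 CPM (-1.77 ± 0.09) and the NF-kB subunit Rel at 152, 139 and 159.9 CPM in the EAE libraries and 501, 555 and 516 CPM in the naive ones (log2 change -1.80 ± 0.07, adjusted p = 1.34e-07). Higher in EAE were Rgs1, a brake on chemokine receptors (279 ± 35.4 against 46.6 ± 4.88 CPM, log2 change 2.57 ± 0.11, adjusted p = 1.86e-07), and the AP-1 partners Batf and Irf4 given above. These directions were the same in the other anti-CD3 arms for 11 higher and 18 lower members, where the 9 EAE and 9 naive libraries did not overlap.

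Interferon-stimulated genes were lower in part. Of 48 tested genes that type I interferon induces, 5 were higher and 23 lower (median log2 change -0.29, 47.9% lower against 23.9% of all tested genes). The count of higher members was 2 without EAE library 2 or naive library 2 and 3 without EAE library 3. Other anti-CD3 arms, some of which received IFNb, did not show this excess of lower members. There all 9 EAE libraries lay above all 9 naive ones in 9 of these genes and below in 6. Over all tested genes these shares were 20.2% and 16.7%. Of the 23 lower members 6 lay below there and 17 overlapped. Ifit1bl1 was at 14.3, 21.3 and 15.5 CPM in the EAE libraries and 155, 121 and 221 CPM in the naive ones (log2 change -3.28 ± 0.23, adjusted p = 3.78e-06), Ifi213 at 29.6 ± 7.14 against 167 ± 45.2 CPM (-2.499 ± 0.22), Ifi203 at 47.9 ± 5.23 against 229 ± 30.1 CPM (-2.26 ± 0.11) and Ms4a4b, a membrane protein of T cells, at 187, 218 and 189 CPM in the EAE libraries and 1184, 1297 and 1450 CPM in the naive ones (log2 change -2.73 ± 0.10, adjusted p = 6.49e-08). The best known members Isg15 (-0.13 ± 0.35), Mx1 (-0.31 ± 0.26) and Irf7 (-0.20 ± 0.31) did not pass. Of 37 tested interferon gamma response genes, 8 were higher and 12 lower (median -0.16), and in the other arms 9 lay above and 1 below. Members that differed included Cxcl9 (25.6 ± 13.96 against 1.67 ± 0.498 CPM, log2 change 3.88 ± 0.47, adjusted p = 0.000116) and the protease inhibitor Serpina3g (100.3 ± 41.6 against 14.7 ± 1.61 CPM, log2 change 2.80 ± 0.30, adjusted p = 4.59e-05) higher and the GTPase Tgtp2 lower (49.98 ± 8.98 against 125 ± 20.7 CPM, log2 change -1.32 ± 0.15, adjusted p = 7.4e-05). Of the list of Stat factors and Socs feedback genes, 10 of 21 tested members were higher and 7 lower (median log2 change 0.13). Here the feedback inhibitor Cish was at 262, 360 and 357 CPM in the EAE libraries and 92.4, 99.1 and 105 CPM in the naive ones (log2 change 1.72 ± 0.12, adjusted p = 3.24e-06), Socs2 at 42.8 ± 9.46 against 9.96 ± 1.16 CPM (2.11 ± 0.17) and Stat5a at 197 ± 7.11 against 95.8 ± 8.97 CPM (1.03 ± 0.08), all of them part of interleukin 2 signaling. Of 34 tested cytokine receptors, 15 were higher and 13 lower (median -0.11), with Il12rb1 (61.4 ± 6.08 against 14.7 ± 0.6302 CPM, 2.06 ± 0.10) and Il2ra among the higher ones.

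Genes of cytotoxic cells were lower together with the CD8 markers. Of 21 tested cytotoxic and NK cell genes, 3 were higher and 11 lower (median log2 change -0.70). Crtam (chr9:40969691-41004628), an adhesion molecule of cytotoxic and CD4 cytotoxic T cells, was at 5.86, 4.58 and 2.94 CPM in the EAE libraries and 136, 164 and 149.9 CPM in the naive ones (33.7-fold lower, log2 change -5.07 ± 0.17, adjusted p = 5.96e-08). Eomes, a T-box factor of CD8 memory and NK cells, was at 4.56, 4.68 and 4.72 CPM in the EAE libraries and 55.7, 63.8 and 68.01 CPM in the naive ones (log2 change -3.75 ± 0.12, adjusted p = 5.86e-08), and the NK receptor subunit Klrd1 at 3.36, 3.43 and 4.51 CPM in the EAE libraries and 57.3, 68.1 and 58.2 CPM in the naive ones (log2 change -4.02 ± 0.14, adjusted p = 6.24e-08). The 3 higher members were the granzymes Gzmb (294, 319 and 313 CPM in the EAE libraries and 71.6, 75.7 and 125 CPM in the naive ones, log2 change 1.75 ± 0.18, adjusted p = 4.13e-05) and Gzma (35.9 ± 10.9 against 6.35 ± 1.93 CPM, 2.48 ± 0.26) and the cystatin Cst7 (0.72 ± 0.12). Cd8a and Cd8b1 were 145.4-fold and 28.8-fold lower, with a log2 change of -7.18 ± 0.24 for Cd8a or -7.77 without EAE library 1, and the part of the CD8 difference in these genes was not tested. Ccr9, a gut homing receptor, was lower as well (5.39 ± 0.676 against 71.2 ± 10.9 CPM, log2 change -3.73 ± 0.15, adjusted p = 1.25e-07), and so were Itga4 (127 ± 16.9 against 519.7 ± 28.4 CPM, log2 change -2.04 ± 0.10, adjusted p = 2.9e-07) and Itgae (2.995 ± 1.06 against 16 ± 3.25 CPM, log2 change -2.42 ± 0.26, adjusted p = 4.6e-05), integrin chains of which the latter marks CD8 and regulatory cells at epithelia.

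Genes with little known role in T cells also led the decreases. Slc6a19 (chr13:73679745-73704865), a neutral amino acid transporter, was at 0, 0.5202 and 0.105 CPM in the EAE libraries and 43.01, 42.2 and 55.2 CPM in the naive ones (213-fold lower, log2 change -7.74 ± 0.35, adjusted p = 2.46e-07, or -9.58 without EAE library 2). The potassium channels Kcna2, 0.7597, 1.35 and 0.734 CPM in the EAE libraries and 35.95, 39.2 and 45.6 CPM in the naive ones (log2 change -5.40 ± 0.21, adjusted p = 9.08e-08), and Kcnc1, 1.19, 0.832 and 1.05 CPM in the EAE libraries and 19.7, 21.8 and 20.1 CPM in the naive ones (log2 change -4.32 ± 0.19, adjusted p = 2.08e-07), were lower, and so was Syt6, a synaptotagmin, at 0.108, 0.416 and 0.629 CPM in the EAE libraries and 26.01, 18.7 and 35.2 CPM in the naive ones (log2 change -6.08 ± 0.40, adjusted p = 2.36e-06). Ms4a4c, a relative of Ms4a4b, was at 3.69, 4.99 and 4.195 CPM in the EAE libraries and 69.3, 72.3 and 76.9 CPM in the naive ones (log2 change -4.08 ± 0.12, adjusted p = 3.97e-08). In each of these 5 genes all EAE libraries were below 5 CPM and all naive libraries above 18 CPM.

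Some large increases concern genes better known from myeloid cells. Nos2 (chr11:78920787-78960254), the inducible nitric oxide synthase, was at 10.96, 50.9 and 22.97 CPM in the EAE libraries and 0.915, 0.295 and 0.739 CPM in the naive ones (log2 change 5.44 ± 0.63, adjusted p = 8.03e-05). Il1rn was at 44.6, 169 and 104 CPM in the EAE libraries and 6.01, 3.98 and 4.55 CPM in the naive ones (log2 change 4.498 ± 0.46, adjusted p = 3.44e-05) and Tgm2, a transglutaminase, at 41.6, 146 and 101 CPM in the EAE libraries and 1.44, 0.516 and 0.8001 CPM in the naive ones (log2 change 6.85 ± 0.55, adjusted p = 8.47e-06). EAE library 1 was lowest and EAE library 2 highest in each of these genes, and the myeloid marker sums had the same order. The cytokines Il17a, Il22, Il9 and Il4, and Hif1a and Xbp1, also had this order. Of single myeloid markers, scaled over all 30 T cell libraries, Itgam (10.8, 36.6 and 16.4 CPM in the EAE libraries) had it. So did Cd14 (2.04, 8.83 and 6.27 CPM) and Csf1r (1.93, 3.12 and 2.51 CPM). Lyz2, S100a8, S100a9 and Siglech did not have it. Without EAE library 2 the change of Nos2 was 4.71. Of 16 tested myeloid and dendritic cell markers, 10 were higher and 2 lower (median log2 change 1.26), but 6 higher and 1 lower of 17 without EAE library 2. Spi1, the myeloid factor PU.1, was at 1.52, 2.91 and 1.57 CPM in the EAE libraries and 0.523, 0.369 and 0.554 CPM in the naive ones (log2 change 2.01 ± 0.43, adjusted p = 0.0036) and Lcn2 at 3.799, 17.8 and 4.72 CPM in the EAE libraries and 1.83, 1.62 and 1.2 CPM in the naive ones (log2 change 2.56 ± 0.58, adjusted p = 0.00475, or 1.501 without EAE library 2), whereas Ctss was lower (56.6 ± 10.5 against 103 ± 18.9 CPM, log2 change -0.87 ± 0.15, adjusted p = 0.00119). Lyz2, an abundant macrophage gene, was at 2.28, 8.95 and 13.1 CPM in the EAE libraries and 12.7, 4.28 and 2.95 CPM in the naive ones and overlaps between the groups, and S100a8 lay between 0 and 2.08 CPM. The part of myeloid cells in these increases was not tested. Of 15 tested chemokines, 7 were higher (46.7%) and 4 lower (26.7%, median 0.25), with Ccl22 at 127, 168 and 138 CPM in the EAE libraries and 38.04, 17.7 and 30.4 CPM in the naive ones (log2 change 2.35 ± 0.22, adjusted p = 2.32e-05) and Ccl2, named after its values were seen, at 3.47, 35.8 and 14.6 CPM in the EAE libraries and 0.262, 0.295 and 0.831 CPM in the naive ones (log2 change 4.94 ± 0.82, adjusted p = 0.000784). Gm10800, a predicted gene, was at 45.04, 51.2 and 42.9 CPM in the EAE libraries and 1.31, 0.959 and 0.585 CPM in the naive ones (56.8-fold, log2 change 5.83 ± 0.21, adjusted p = 6.49e-08), and its change in unstimulated cells was 7.02.

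The next question was which of these differences were already present before stimulation. The 6 unstimulated T cell libraries, 3 EAE and 3 naive, were fitted together with the 6 activated ones. Of 14598 genes tested, 5441 were called between unstimulated EAE and naive cells (37.3%), 2865 higher (19.6%) and 2576 lower (17.6%). The change differed between activated and unstimulated cells in 5010 genes (34.3%), of which 2494 had a more positive change after activation (17.1%) and 2516 a more negative one (17.2%). Counts of list members given below for unstimulated cells and for the difference are to be read against these shares. Of the 3740 genes called higher in activated EAE cells, 1329 were also called higher in unstimulated ones (35.5% of 3740, and 50% of the 2656 called higher without stimulation) and 451 were called lower (12.1%). Of the 3217 called lower, 1066 were called lower in unstimulated cells too (33.1%, and 42.4% of 2513) and 367 were called higher (11.4%).

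Most glycolysis and G1/S genes had a more positive change after stimulation, and about as many mitosis genes did as did not. In unstimulated cells 8 of 23 glycolysis genes were higher and 1 lower, and the change was more positive after activation in 20 of them. For the phosphofructokinase Pfkl the unstimulated levels were 21.9 ± 2.55 against 25.04 ± 1.13 CPM, and the activated ones were 104 ± 2.78 against 17.7 ± 1.68 CPM, a difference of log2 changes of 2.69 ± 0.14 (adjusted p = 5.35e-08). Of 45 G1/S genes 12 were higher and 9 lower without stimulation, and 37 had a more positive change after it. Of 40 mitosis genes 17 were already higher and 3 lower without stimulation (median log2 change 0.43), and 21 had a more positive change after it. Top2a changed by 1.77 without stimulation (difference 0.86 ± 0.23, adjusted p = 0.0109) and Mki67 by 1.67, where the difference was not called (0.58 ± 0.24, adjusted p = 0.0728). Mcm3 was at 25.96 ± 2.88 against 29.6 ± 2.77 CPM without stimulation (difference 2.73 ± 0.14, adjusted p = 5.76e-08) and Mcm6 at 61.2 ± 4.16 against 75.5 ± 3.18 CPM (difference 1.97 ± 0.09, adjusted p = 4.43e-08), so Mcm6 was slightly lower in EAE before and higher after activation. The DNA ligase Lig1 had a change of -0.18 without stimulation (difference 2.69 ± 0.14) and the maintenance methyltransferase Dnmt1 one of -0.41 (difference 1.74 ± 0.10). Il21, Il13 and Il17a were all low without stimulation, at mean levels of 2.11, 0.534 and 0.562 CPM in EAE and 0.799, 0.162 and 0.345 CPM in naive cells. Il21 was already called higher in EAE (1.93, adjusted p = 0.0106), and Il13 and Il17a were not. Their changes were larger after activation by 4.93 ± 0.80, 6.96 ± 1.90 and 4.54 ± 1.42. Sterol and fatty acid genes had 24 of 32 members with a more positive change, nuclear respiration genes 38 of 45, and the unfolded protein response 14 of 24. Without stimulation 3 nuclear respiration genes were higher in EAE and 29 lower (median log2 change -0.37). The sterol list then had 8 higher and 5 lower, and the unfolded protein response 11 higher and 1 lower.

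Interferon and early response genes showed the reverse course. In unstimulated cells 45 of 49 type I interferon-stimulated genes, 31 of 38 interferon gamma response genes and 24 of 35 early response genes were higher in EAE, with median log2 changes of 1.89, 1.98 and 1.05. Over all tested genes 19.6% were called higher without stimulation. Myeloid and dendritic cell markers were also higher in EAE without stimulation, in 17 of 21 (median log2 change 3.16). Their sums were 464 to 982 CPM in unstimulated EAE against 159 to 197 CPM in unstimulated naive libraries. However, the change was more negative after activation in only 6 of these 21 markers. The part of myeloid cells in the interferon and early response genes was not tested. The change was more negative after activation in 45, 31 and 26 genes of the interferon and early response lists, against 17.2% of all tested genes. Cd274 was at 544 ± 57.2 against 46.04 ± 8.88 CPM without stimulation and at 267 ± 32.9 against 378 ± 48.7 CPM with it, so the sign of its change turned (difference -4.12 ± 0.20, adjusted p = 4.43e-08). The guanylate-binding protein gene Gbp8, which shares exon sequence with Gbp4 and Gbp9, was at 265 ± 8.13 against 52.4 ± 3.08 CPM without stimulation and 86.5 ± 3.39 against 126 ± 19.2 CPM with it (difference -2.94 ± 0.14, adjusted p = 4.43e-08). Bcl6 was at 109.5 ± 5.98 against 62.8 ± 12.4 CPM before and 20.6 ± 0.963 against 132 ± 5.43 CPM after activation (difference -3.55 ± 0.17, adjusted p = 4.43e-08). Ifng was already far higher in unstimulated EAE cells, at 108 ± 102 against 1.23 ± 0.343 CPM, and the gap narrowed after activation (difference -3.81 ± 1.12). Of the Th1 list, 13 of 16 genes were higher in EAE without stimulation against 5 of 16 with it. Ms4a4b was at 1270 ± 82.2 against 1385 ± 47.8 CPM without stimulation, with a change of -0.08, and at 198 ± 17.4 against 1310 ± 133 CPM after activation (difference -2.66 ± 0.12, adjusted p = 4.43e-08). The pseudogene Gm8995 had a change of 1.25 without and -1.84 ± 0.09 with stimulation (difference -3.10 ± 0.15, adjusted p = 4.43e-08). Cd8a had a change of -6.17 without and -7.18 ± 0.24 with stimulation, a difference that was not called (-1.03 ± 0.40, adjusted p = 0.0584).

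**Figure D5:**
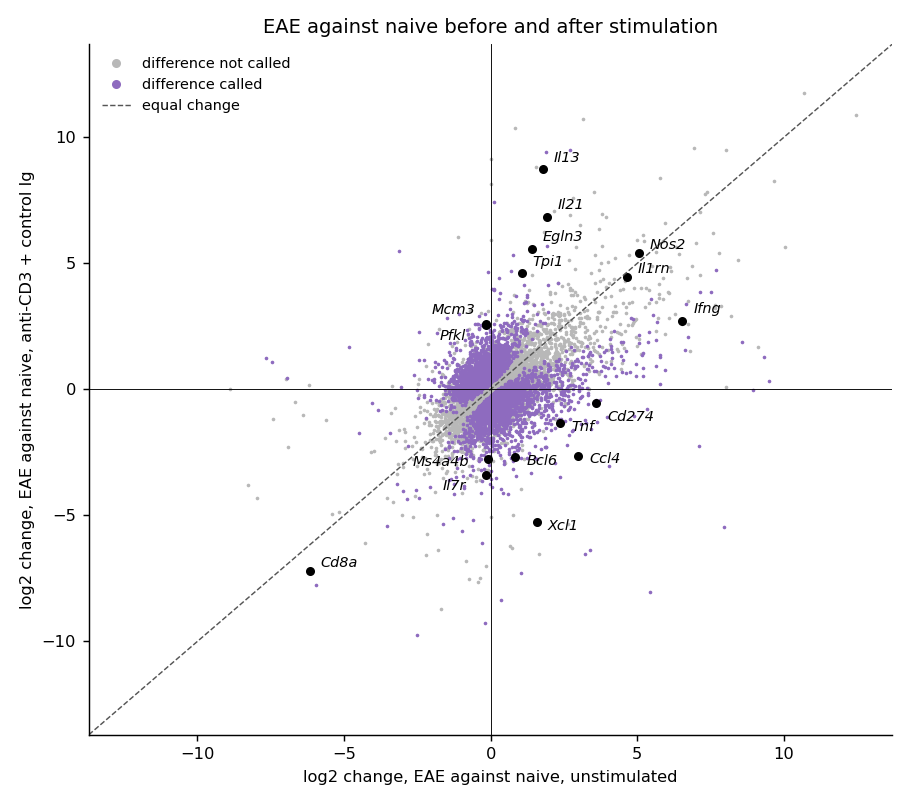
Log2 change of EAE against naive cells without stimulation (horizontal axis) and with anti-CD3 and control Ig (vertical axis) for the 14598 genes tested, each point a gene, purple where the changes differed (5010 genes). Il13, Il21, Egln3 and Tpi1 lie near the vertical axis, Ifng, Cd274, Tnf and Ccl4 lie below the dashed line of equal change, and Nos2, Il1rn and Cd8a lie near it.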

How the data were processed

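RNA of T cells, selected for CD4+ cells per the study's methods, was sequenced on an Illumina HiSeq. The authors quantified transcripts with Salmon (version not given in the sources used here) and deposited estimated counts, TPM and effective lengths per transcript and run, with GRCm38 named in the processing notes. The sources used here give neither the library kit nor its strand. Estimated counts were summed per gene through GENCODE M21, over 2 runs where a library had them, and rounded. Of 116945 transcripts 922 matched no gene and held 0.424 to 0.684% of counts. No column of another series was used. B cell tables were not used.

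Groups followed the sample labels. The tables held 35519 genes. Those passing filterByExpr of edgeR 4.0.16 (minimum count 10) were fitted by quasi-likelihood after TMM normalization, without a replicate block, in R 4.3.3 (limma 3.58.1), with p-values adjusted by Benjamini-Hochberg over all tested genes and called at 0.05. The difference between activated and unstimulated cells was an interaction term over 12 libraries. Nothing in the labels says that libraries came from separate animals, so p-values measure the spread between these libraries. Counting intervals cover 95% and, like the floor of 3 counts over a group, counting error only. Depth was 7.3 to 32.3 M counts, and a gene at 1 CPM rests on few reads in the shallowest library. The test was checked on simulated data. There it recovered 35.8, 64.2 and 90.9% of genes changed by 1.5-, 2- and 4-fold in the activated comparison, with 9 false among 136 calls. For the difference these shares were 17.9, 52.2 and 65.2%, with 6 false among 96 calls. A gene that was not called may therefore still differ. Alternatives were RLE and upper-quartile normalization, no filter, counts rescaled from the deposited TPM and effective lengths, DESeq2 1.42.0, a mean of at least 1 CPM, all 30 T cell libraries, first runs only, a replicate block and leaving out each library.

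The comparison and the 37 gene lists were chosen with earlier results of these data known. Named genes were the 12 largest changes in each direction among called genes averaging at least 10 CPM without overlap of the groups (receptor and immunoglobulin segments left out), at most 4 genes of each list by smallest p, 5 in each direction for the difference, and Btla, Tnfrsf14, Hif1a, Cd4, Cd8a, Cd8b1, Foxp3, Tbx21, Ifng, Il2, Il17a, Csf2 and Il21. Chosen after their values were seen were Asns, Ccl2, Ccr7, Cst7, Cxcr5, Ddit3, Egr1, Gata3, Gzma, Gzmb, Il17f, Il1a, Il1b, Il22, Il4, Il5, Il9, Irf7, Isg15, Ldha, Lyz2, Mx1, Myc, Pdcd1, Ptgs2, Slc16a3, Tcf7 and Trbv12-1. Of 156 genes named by the rule, 17 have exons that overlap a sense-strand neighbour and 43 an antisense one. Some genes that the rule names are not reported here.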

Additional observations from a re-analysis of the deposited data

Results flagged for a closer look

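The contrast of EAE with naive cells differed between activated and unstimulated T cells in 5010 genes by an interaction term in edgeR (34.3% of the genes tested). By the same test, the 5 genes of smallest p on either side of 0 were singled out. The differences of log2 changes, activated minus unstimulated, were 1.97 ± 0.09 for Mcm6, 2.69 ± 0.14 for Pfkl, 2.73 ± 0.14 for Mcm3, 2.69 ± 0.14 for Lig1 and 1.74 ± 0.10 for Dnmt1, and -2.66 ± 0.12 for Ms4a4b, -2.94 ± 0.14 for Gbp8, -3.10 ± 0.15 for Gm8995, -3.55 ± 0.17 for Bcl6 and -4.12 ± 0.20 for Cd274. In all 10 the 3 activated EAE libraries and the 3 naive ones did not overlap, which holds for 60.8% of the genes tested in activated cells. These libraries also entered the test that picked the 10 genes. With 3 libraries per group, single outlying libraries were not tested for.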

How the results depend on the processing

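The number of genes called between activated EAE and naive cells stayed within 1.5 times of 6957 under every alternative run, from 5259 with length-scaled counts, where 94 of the called genes had the opposite sign, to 7714 with all 30 T cell libraries in the fit. It ranged from 5865 to 7425 when each library was left out. The count for the difference from unstimulated cells ranged from 3374 with length-scaled counts to 5390 and, without each library, from 4332 to 5102, around 5010. With upper-quartile normalization 47.1% of calls were higher in EAE against 53.8%, and the median log2 change was -0.08. Same-numbered EAE and naive libraries did not deviate together (correlations 0.036, -0.068 and 0.038, against -0.101 to 0.077 for other pairs). With 3 libraries per group these values cannot decide whether a number marks a shared batch. With a replicate block 6747 genes were called, of which 6554 were among those called without it, and 5242 differed from unstimulated cells, where the block was the number within EAE and within naive. Same-numbered activated and unstimulated libraries did deviate together in part, with correlations of 0.223, 0.252 and 0.069 in EAE and 0.155, 0.1 and 0.206 in naive cells, so they may share sources, which the labels do not state. No named gene was called in the opposite direction under any alternative. Of the named genes, Csf2, Il2 and Spi1 lost their call under some alternatives, Csf2 also with upper-quartile normalization, length-scaled counts, all 30 libraries or first runs only, and Il2 and Spi1 also with length-scaled counts. Jchain gained one without a filter, with DESeq2, with the block, and without EAE library 1 or naive library 2. Length-scaled counts moved Tpi1 to 3.87, Ak4 to 7.86, Mcm10 to 5.33, Nr4a2 to -3.11 and Kcnc1 to -5.03. Of the counts of list members, 40 moved by over 1.5 times and 1070 did not. Except where the setting's own construction gives it (fewer libraries), the cause was not tested. The naive libraries differ in depth by more than the EAE ones, and genes under a few CPM rest on few counts.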

Other observations

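Variable segments of the T cell receptor alpha and beta chains made up 0.0538 to 0.0587% of the counts of EAE and 0.0634 to 0.0667% of those of naive libraries, which do not overlap. Of 76 tested alpha segments 1 was higher and 10 lower in EAE (median log2 change -0.01), and of 21 tested beta segments 3 were higher and 8 lower (median -0.20). The beta segment with the most negative change, Trbv12-1, was at 0.7597, 0.832 and 1.68 CPM in the EAE libraries and 7.58, 6.93 and 5.38 CPM in the naive ones (log2 change -2.58 ± 0.34, adjusted p = 0.000195), and in the other anti-CD3 arms the 9 EAE libraries also lay below the 9 naive ones. Segments were described as a group, and Trbv12-1 was picked after its values were seen. Of the list of T cell and CD4 identity genes, 9 of 20 tested members were higher and 5 lower (median log2 change 0.11), with Cd5 (398 ± 23.8 against 189 ± 27.1 CPM, log2 change 1.08 ± 0.10, adjusted p = 2.29e-05) and Cd2 (514 ± 69.02 against 231 ± 6.76 CPM, log2 change 1.15 ± 0.10, adjusted p = 9.8e-06) higher and Cd27 lower (229.9 ± 7.47 against 429 ± 5.94 CPM, log2 change -0.90 ± 0.06, adjusted p = 1.93e-06).

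Of the Bcl2 family and death genes, 7 of 24 tested members were higher and 7 lower (median log2 change 0.10). These are 29.2% each, near the 27.7% and 23.9% of all tested genes. Bcl2 was at 417 ± 39.3 against 245 ± 25.4 CPM (log2 change 0.76 ± 0.09, adjusted p = 0.000117), while the proapoptotic Bcl2l11, which encodes Bim, was lower (185 ± 16.02 against 283 ± 2.88 CPM, log2 change -0.62 ± 0.07, adjusted p = 8.96e-05). Of the integrins, selectin ligands and homing receptors, 14 of 34 tested members were higher and 13 lower (median log2 change 0.03). Of the glucocorticoid response genes, 5 of 18 tested members were higher (27.8%) and 7 lower (38.9%, median log2 change -0.06), with Tsc22d3, the Gilz gene, lower (27.5 ± 7.36 against 113 ± 8.48 CPM, log2 change -2.04 ± 0.16, adjusted p = 8.3e-06). Of the TGF-beta response genes, 7 of 18 tested members were higher and 6 lower (median log2 change 0.12). Among genes picked after their values were seen, the interleukin 1 genes Il1a (30.4, 122 and 79.3 CPM in the EAE libraries and 7.32, 4.35 and 9.17 CPM in the naive ones, log2 change 3.42 ± 0.46, adjusted p = 0.00022) and Il1b (20.3, 90.2 and 50.5 CPM in the EAE libraries and 5.49, 1.84 and 5.48 CPM in the naive ones, log2 change 3.62 ± 0.53, adjusted p = 0.000363) and Ptgs2, which encodes cyclooxygenase 2 (68.6, 246 and 164 CPM in the EAE libraries and 23.5, 10.8 and 22.7 CPM in the naive ones, log2 change 3.07 ± 0.43, adjusted p = 0.000289), were higher in EAE with EAE library 1 the lowest of the 3, an order seen for the myeloid marker sums and also for Il17a, Il22 and Hif1a.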
